A study of Danio rerio with 6 samples.

Results

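The genes described here encode the receptors through which the autonomic nervous system and adenosine act on the heart, 2 regulators of G protein signalling, and the 3 Popeye domain genes. They were listed by symbol, with earlier results of these data known: adrb1, chrm2a, adora1b, rgs4, rgs6, popdc2, popdc3 and bves. These 8 symbols matched 10 of the 31465 gene IDs measured, and 9 of the 10 passed the filter on low counts. Of the symbols, 6, adrb1, rgs4, rgs6, popdc2, popdc3 and bves, had a gene ID of their own. For the other 2 the gene names used here carry no copy letter. The symbol chrm2a therefore matched 2 IDs named CHRM2 and adora1b matched 2 IDs named ADORA1, of which only 1 in each pair can be the listed gene. Those 4 IDs are reported separately, each by its own ID.

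The autonomic nervous system sets the rate of the pacemaker. Noradrenaline and adrenaline bind beta adrenergic receptors, which couple to the stimulatory G protein, raise cyclic AMP and speed the beat, whereas acetylcholine on the M2 muscarinic receptor and adenosine on the A1 receptor act through inhibitory G proteins, lower cyclic AMP, open G protein-gated potassium channels and slow it. RGS proteins end the inhibitory signal by speeding GTP hydrolysis on the G protein alpha subunit, and Popeye proteins are membrane proteins that bind cyclic AMP and interact with the potassium channel TREK-1. In mice, loss of Rgs4, Rgs6, Popdc2 or Bves is known to disturb sinus rhythm.

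RNA was sequenced from heart cells of zebrafish embryos of the line sqet33mi59BEt at 72 hours post fertilization (hpf). In this enhancer trap line, green fluorescent protein (GFP) marks the sinoatrial ring (SAR), the pacemaker region at the inflow of the heart. Dissociated hearts, pooled from many embryos per replicate, were sorted into GFP+ cells (SAR, 3 libraries) and GFP- cells (the rest of the heart, ROH, 3 libraries), so both fractions come from reporter-carrying hearts. The comparison asks which genes are enriched in the SAR over the ROH.

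The libraries differed widely in depth, with 7495108 to 77243214 estimated counts in the SAR and 999437 to 23495798 in the ROH. ROH replicate 1 was the shallowest, and 3 counts in it correspond to 3.0 CPM (counts scaled to the library total), against 0.157 or less in the other ROH libraries. The CPM values of single genes below were also scaled by a further factor per library from edgeR, the TMM factor. Of 7 pacemaker markers, 4 were higher in the SAR at an adjusted p below 0.05 by edgeR's quasi-likelihood test, against 4.88% of all tested genes. Among them were hcn4 and tbx18, the latter also an epicardial marker. Not passing were isl1 (log2 fold change of SAR over ROH -1.56, adjusted p = 0.163), TBX3 (-0.55, 0.451) and shox2 (0.37, 0.837). The GFP+ fraction also held markers of other cell types. Summed epidermal markers reached 2870 to 4610 TPM in it (transcript abundance corrected for length and scaled to the same total in each library) against 537 to 705 in the ROH, and summed epicardial markers 672 to 862 against 81.1 to 116. Of 6 tested epidermal markers, 4 were higher in the SAR and 0 lower, against 4.88% and 5.45% of all tested genes. The epidermal markers cdh1 (0.24, adjusted p = 0.655) and TP63 (1.01, 0.201) did not pass with edgeR. Summed neuronal markers overlapped, at 627 to 1040 TPM in the SAR and 409 to 904 in the ROH. Of 10 tested neuronal markers, 2 were higher in the SAR and 0 lower, against 4.88% and 5.45% of all tested genes. The ROH held 25900 to 42400 TPM of erythrocyte markers, against 13.6 to 23.4 in the SAR, and its endothelial and leukocyte sums lay 368 to 949 and 234 to 403 TPM against 85.9 to 124 and 2.11 to 3.3. Liver markers summed to 10600 to 18000 TPM in the ROH and 51.4 to 2060 in the SAR. Summed myocardial markers reached 4000, 4300 and 1120 TPM in SAR replicates 1 to 3 and 1460, 1470 and 778 in ROH replicates 1 to 3, so SAR replicate 3 stood apart from the other SAR libraries and below 2 of the ROH libraries.

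Higher in the SAR were 4 of the 9 tested genes, namely adrb1, CHRM2 ENSDARG00000098612, popdc2 and bves. In edgeR's quasi-likelihood test, with p-values adjusted by Benjamini-Hochberg over all 21969 tested genes and a threshold of 0.05, 4.88% of all genes were higher in the SAR and 5.45% were lower. None of the 9 genes was lower, and none was lower at an unadjusted p below 0.05 with edgeR, DESeq2 or limma. Of the 4, 3 (all but bves) also reached the study's threshold of 1.5 on the log2 scale, past which 2.84% of all genes were higher. Of the 9, 7 had a log2 fold change above 0, as did 52.3% of all genes. The median was 1.17 against 0.03 for all genes. In CPM with the TMM factors, 5 of the 9 had every SAR library above every ROH library, namely these 4 genes and rgs4, against 14.3% of all genes. For rgs4 this depended on those factors. None of the 9 had every SAR library below every ROH library, against 15.6% of all genes. Leaving out 1 library at a time gave between 0 and 4 genes higher. The count was 0 without ROH replicate 1 and 0 without ROH replicate 2, where 5 genes still had an unadjusted p below 0.05 with edgeR each time. Without SAR replicate 3 it was 2, without ROH replicate 3 it was 2, and without SAR replicate 2 it was 3. The libraries are bulk samples, so fewer cells of a type and less RNA per cell cannot be told apart for any of these genes.

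**Figure D1:**
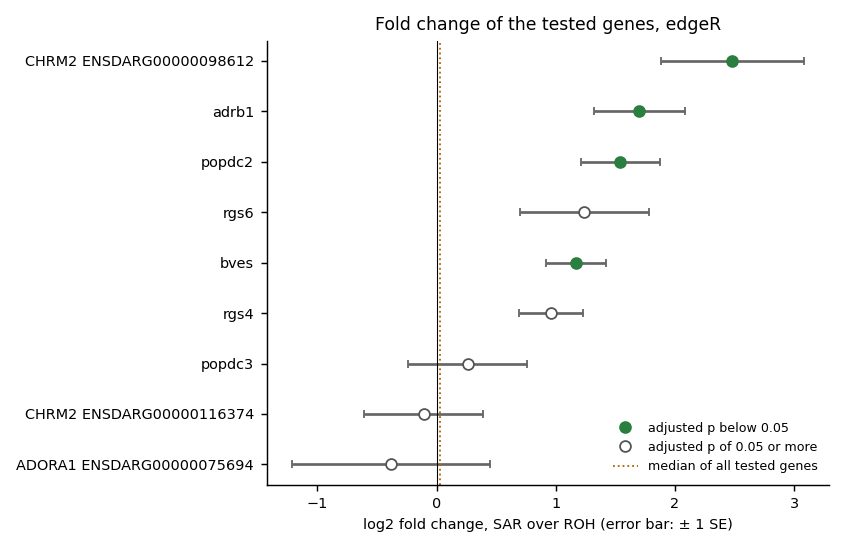
The log2 fold change of SAR over ROH (horizontal axis) for each of the 9 tested genes, with bars of ± 1 standard error and filled points for an adjusted p below 0.05 in edgeR. The 4 filled points are CHRM2 ENSDARG00000098612 at 2.48, adrb1 at 1.70, popdc2 at 1.54 and bves at 1.17, and the dotted line is the median of all tested genes at 0.03.

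The most abundant of the genes in both fractions were bves, popdc2 and rgs4, in TPM. In the SAR, the mean level was 54.7 ± 18.1 TPM for bves, 42.8 ± 17.6 for popdc2 and 40.4 ± 19.4 for rgs4 (SD, n = 3), with overlapping ranges. A gap followed, since every SAR value of rgs4 lay above every SAR value of adrb1, at 12.6 ± 2.44 TPM. The next, rgs6 (4.47 ± 1.93 TPM), lay below adrb1 in every SAR library, and from it through popdc3 (3.92 ± 2.91) and CHRM2 ENSDARG00000098612 (3.54 ± 0.406 TPM) each range overlapped the next. The other CHRM2 ID and both ADORA1 IDs lay at 1.23 TPM or less. In the ROH the order began with bves at 23.6 ± 1.46, rgs4 at 23.4 ± 9.09 and popdc2 at 12.4 ± 3.33 TPM, and the ranges of bves and rgs4 overlapped while that of popdc2 lay below both. CHRM2 ENSDARG00000098612 stood 7th of the 10 in the SAR and 9th in the ROH, at 0.458 ± 0.449 TPM.

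**Figure D2:**
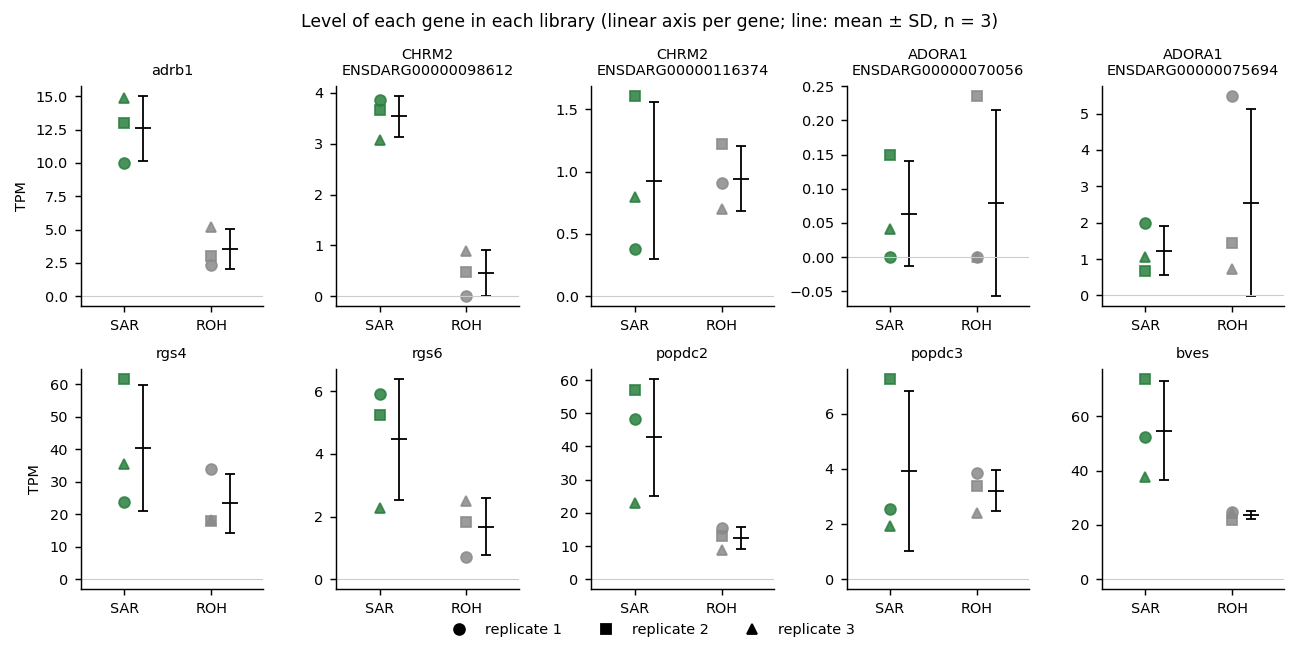
TPM (vertical axis, linear and scaled per gene) of each of the 10 gene IDs in the 3 SAR and 3 ROH libraries, with a symbol for each replicate and a line for the mean ± SD (n = 3). The SAR and ROH points do not overlap for adrb1, CHRM2 ENSDARG00000098612, popdc2 and bves, and they overlap for the other 6.

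Among the receptors, adrb1, which encodes the beta-1 adrenergic receptor, the main cardiac receptor for noradrenaline, was higher in the SAR. It measured 10, 13.0 and 14.9 TPM in SAR replicates 1, 2 and 3 and 2.38, 3.02 and 5.23 TPM in ROH replicates 1, 2 and 3. The lowest SAR library was above the highest ROH library, and replicate 3 was the highest of each fraction. The difference was 3.25-fold (log2 fold change 1.70, SE 0.38, adjusted p = 0.0286 with edgeR). In ROH replicate 1 the level rests on 2 estimated counts, against 61 and 89 in the other ROH libraries and 64 to 917 in the SAR. The call was lost without SAR replicate 3 (1.61, adjusted p = 0.0895), without ROH replicate 1 (1.58, adjusted p = 0.0748) and without ROH replicate 2 (1.49, adjusted p = 0.154).

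Of a list of 9 further adrenergic receptor genes that were tested, none passed with edgeR, 1 was higher and 2 were lower at an unadjusted p below 0.05, and DESeq2 called 1 higher and limma none. The median of these 9 genes was 0.02. One of them, ADRB3 ENSDARG00000053646, named here after its values were seen because its mean SAR level equalled that of adrb1, stood at 12.6 TPM in the SAR and 11.8 TPM in the ROH (log2 fold change 0.02, adjusted p = 0.983 with edgeR).

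The M2 muscarinic receptor carries the vagal signal to the pacemaker, and 1 of its 2 IDs, CHRM2 ENSDARG00000098612, had the largest log2 fold change of the 9 tested genes. It measured 3.87, 3.66 and 3.08 TPM in the SAR and 0, 0.476 and 0.898 TPM in the ROH. The SAR libraries lay close together and well above all ROH libraries. The difference was 5.56-fold (log2 fold change 2.48, SE 0.60, adjusted p = 0.0356 with edgeR). The value of 0 in ROH replicate 1 does not show absence, because 3 counts in that library correspond to 3.0 CPM before the TMM factor. The SAR libraries stood at only 4.67, 4.0 and 3.40 CPM. The other ROH libraries held 12 and 21 counts and the SAR libraries 32, 137 and 260. The difference without ROH replicate 1 was 2.33 on the log2 scale, with an adjusted p of 0.0638. The call was also lost without ROH replicate 2 (2.17, adjusted p = 0.188) and without SAR replicate 1 (2.35, 0.0613), 2 (2.46, 0.0521) or 3 (2.58, 0.0753), with gene length offsets (2.59, adjusted p = 0.0692), with these and a replicate block (2.89, 0.0541), and with limma on log2(TPM + 0.1) (3.23, 0.135).

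The other CHRM2 gene did not pass. CHRM2 ENSDARG00000116374 measured 0.378, 1.61 and 0.793 TPM in the SAR and 0.910, 1.22 and 0.704 TPM in the ROH. Its fractions overlapped (log2 fold change -0.11, SE 0.50, adjusted p = 0.942 with edgeR), with the sign turning to 0.18 without SAR replicate 1 and 0.12 without ROH replicate 2. The TPM ratio of ENSDARG00000098612 to ENSDARG00000116374 was 10.2, 2.27 and 3.89 in the SAR and 0, 0.390 and 1.28 in the ROH. Every SAR ratio lay above every ROH ratio (exact permutation p = 0.1, the smallest possible), but the ratio of 0 in ROH replicate 1 rests on 0 counts at a depth that does not show absence. Among the other muscarinic receptor genes, 4 were tested and none passed with edgeR, DESeq2 or limma, with 1 higher and none lower at an unadjusted p below 0.05. Their median log2 fold change was 1.11.

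Adenosine A1 receptor transcripts were scarce in both fractions. ADORA1 ENSDARG00000070056 had at most 2 estimated counts in any library and was removed by the filter, so a difference was not detectable at this depth. ADORA1 ENSDARG00000075694 measured 1.98, 0.668 and 1.05 TPM in the SAR and 5.49, 1.44 and 0.728 TPM in the ROH. The highest of these values, in ROH replicate 1, rests on 3 estimated counts. The groups overlapped (log2 fold change -0.38, SE 0.83, adjusted p = 0.857 with edgeR), and the difference was 0.12 without ROH replicate 1. Of the other 3 adenosine receptor genes, 1 was lower in the SAR, or 33.3% against 5.45% of all genes, and none was higher. At an unadjusted p below 0.05 with edgeR, 2 were lower and none was higher. The gene that passed was adora2aa, a gene of another adenosine receptor, whose mammalian counterpart couples to the stimulatory G protein. It measured 2.21 to 4.90 TPM in the SAR against 10.5 to 18.5 TPM in the ROH (log2 fold change -1.71, SE 0.31, adjusted p = 0.0117 with edgeR). That call was lost only without ROH replicate 2. The endothelial, leukocyte and erythrocyte marker sums moved in the same direction as adora2aa, and their part in it was not tested.

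Of the regulators of G protein signalling, rgs4 was abundant in both fractions and rgs6 scarce, and neither passed. In mice, Rgs4 restrains muscarinic signalling in the sinoatrial node. The level of rgs4 was 23.8, 61.7 and 35.6 TPM in the SAR and 33.9, 18.0 and 18.3 TPM in the ROH. In TPM the fractions overlapped, because ROH replicate 1 lay above SAR replicate 1. In CPM with the TMM factors they did not, with 46.1, 94.0 and 62.3 in the SAR against 41.3, 31.5 and 33.4 in the ROH. These factors were 0.915 in SAR replicate 1 and 1.07 in ROH replicate 1. By library totals alone the fractions overlapped. ROH replicate 1 held 44 of 999437 counts, a larger part than the 316 of 7495108 in SAR replicate 1. The log2 fold change was 0.96 (SE 0.27, adjusted p = 0.0626 with edgeR). It passed with DESeq2 (0.99, adjusted p = 0.0192), without a filter on low counts (1.0, adjusted p = 0.0349) and without SAR replicate 1 (1.17, adjusted p = 0.0223). With limma it was 0.72 on log2(TPM + 1) and 0.74 on log2(TPM + 0.1), far from passing (adjusted p = 0.449 and 0.45).

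Mammalian RGS6 works as a stable complex with the G protein subunit beta 5 and dampens the muscarinic slowing of the heart. Here rgs6 measured 5.90, 5.24 and 2.28 TPM in the SAR and 0.700, 1.84 and 2.5 TPM in the ROH. SAR replicates 1 and 2 lay above all ROH libraries, but SAR replicate 3 was below ROH replicate 3, and ROH replicate 1 rests on 1 estimated count. The log2 fold change was 1.24 with an SE of 0.54, and rgs6 did not pass (adjusted p = 0.215 with edgeR, 0.115 to 0.496 when 1 library was left out). A list of partners of its RGS family held IDs of GNB5, RGS7BP and RGS9BP, the last not specific to RGS6. Of its 6 tested IDs (median 0.36), 1 was higher in the SAR, or 16.7% against 4.88% of all genes. The RGS9BP IDs had log2 fold changes of -0.84 and -1.39 and did not pass. RGS7BP ENSDARG00000016742, a membrane anchor of this RGS family, was higher in the SAR at 17.5 to 21.6 TPM against 6.64 to 7.19 TPM (log2 fold change 1.48, SE 0.24, adjusted p = 0.00839 with edgeR), a call lost without ROH replicate 2. GNB5 ENSDARG00000099685 had a log2 fold change of 1.80 (adjusted p = 0.0918) and GNB5 ENSDARG00000055377 of 0.62 (adjusted p = 0.543, both with edgeR).

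Other RGS genes moved both ways. Of 20 tested, 2 were higher and 1 was lower with edgeR, against 4.88% and 5.45% of all genes, and the median was -0.03. At an unadjusted p below 0.05 with edgeR, 2 were higher and 6 were lower. DESeq2 called 2 higher and 2 lower, and limma 2 higher and none lower. In CPM, 2 had every SAR library above every ROH library and 5 had every SAR library below. The level of rgs2, whose mammalian counterpart acts mainly on Gq, was 39.7, 26.0 and 32.7 TPM in the SAR and 4.81, 4.93 and 7.03 TPM in the ROH (log2 fold change 2.62, SE 0.40, adjusted p = 0.00673 with edgeR). For rgs5a, related to a mammalian pericyte and smooth muscle marker, it was 64.4, 116 and 75.8 TPM against 17.6, 23.2 and 37.3 TPM (1.67, SE 0.29, adjusted p = 0.0100). For rgs3b it was lower in the SAR, at 5.24 to 9.46 against 14.0 to 31.9 TPM (-1.48, SE 0.26, adjusted p = 0.0102). These 3 calls held whichever library was left out, but rgs3b was lost with limma on log2(TPM + 1) (adjusted p = 0.083), on log2(TPM + 0.1) (0.0825) and on genes with a mean of at least 1 TPM (0.0516). Smooth muscle markers summed to 3580 to 4000 TPM in the SAR and 1300 to 2800 TPM in the ROH, without overlap, and their part in the rgs5a difference was not tested.

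Of the 3 Popeye genes, popdc2 and bves were higher in the SAR. In SAR replicates 1, 2 and 3, popdc2, which in mammals is expressed mainly in heart and skeletal muscle, measured 48.4, 56.9 and 23.1 TPM, and in the ROH it measured 15.3, 13.1 and 8.76 TPM. All SAR libraries lay above all ROH libraries, and replicate 3 was the lowest of each fraction. The difference was 2.91-fold (log2 fold change 1.54, SE 0.33, adjusted p = 0.0232 with edgeR), on 730 to 3957 estimated counts in the SAR and 38 to 874 in the ROH. Leaving out any of the SAR libraries kept the call, and leaving out ROH replicate 1 (1.61, adjusted p = 0.0612), 2 (1.68, 0.0560) or 3 (1.41, 0.0604) lost it. It was also lost with limma on log2(TPM + 1) (1.65, adjusted p = 0.0635) and on log2(TPM + 0.1) (1.72, 0.0656). The mean length of the popdc2 transcripts, as Salmon estimated it, was 1032, 1296 and 1206 bases in the SAR and 1257, 1854 and 1583 in the ROH. These lengths overlapped between the fractions (exact permutation p = 0.2), and with gene length offsets the log2 fold change was 2.06. Skeletal muscle markers summed to 1430, 819 and 543 TPM in the SAR and 537, 325 and 540 TPM in the ROH. SAR replicate 3 was thus barely above ROH replicates 1 and 3. Of the 7 tested markers, 1 was higher in the SAR and 0 lower, against 4.88% and 5.45% of all genes. The part of skeletal muscle markers in the popdc2 difference was not tested.

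The level of bves, which encodes Popeye domain protein 1, was 52.4, 73.8 and 37.8 TPM in the SAR and 24.6, 21.9 and 24.4 TPM in the ROH. The ROH libraries lay close together, and every SAR library was above them. The difference was 2.25-fold (log2 fold change 1.17, SE 0.25, adjusted p = 0.0246 with edgeR), under the fold threshold of the study. It passed whichever SAR library was left out, and missed without ROH replicate 1 (1.15, adjusted p = 0.0777), 2 (1.16, 0.0945) or 3 (1.26, 0.0508). It also missed with limma on log2(TPM + 1) (1.13, adjusted p = 0.0586) and on log2(TPM + 0.1) (1.16, 0.0618), and in the edgeR fit that combined a replicate block with gene length offsets (1.08, 0.0519).

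The third Popeye gene, popdc3, was much less abundant and did not differ detectably. It measured 2.56, 7.26 and 1.94 TPM in the SAR and 3.83, 3.38 and 2.40 TPM in the ROH. SAR replicate 2 was the highest of all 6 libraries and SAR replicate 3 the lowest (log2 fold change 0.26, SE 0.50, adjusted p = 0.831 with edgeR), and without SAR replicate 2 the difference was -0.43. In the GRCz12tu assembly of RefSeq, popdc3 and bves are neighbouring protein-coding genes, so these neighbours had log2 fold changes of 0.26 and 1.17. Estimated counts of both lay more than 0.001 from a whole number in all 6 libraries, and those of popdc2 in 5 of 6, as occurs where Salmon divides reads between features.

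The shares of popdc2 and popdc3 in the family separated the fractions. The Popeye sum was 103, 138 and 62.8 TPM in the SAR and 43.7, 38.4 and 35.5 TPM in the ROH, a difference of 1.3 on the log2 scale without overlap (exact permutation p = 0.1, the smallest possible, also for the next comparisons that give 0.1). The share of popdc3 in it was 2.48%, 5.26% and 3.09% in the SAR and 8.78%, 8.79% and 6.77% in the ROH, lower in every SAR library (exact permutation p = 0.1). For popdc2 the share was 46.9%, 41.3% and 36.8% in the SAR against 35.0%, 34.2% and 24.7% in the ROH, higher in every SAR library (exact permutation p = 0.1). The ratio of popdc2 to popdc3 was 18.9, 7.84 and 11.9 in the SAR and 3.99, 3.89 and 3.64 in the ROH (exact permutation p = 0.1). In ROH replicate 1 the shares and this ratio rest on 36 estimated counts of bves, 38 of popdc2 and 9 of popdc3. The share of bves overlapped, at 50.7% to 60.2% in the SAR and 56.2% to 68.6% in the ROH (exact permutation p = 0.4).

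**Figure D3:**
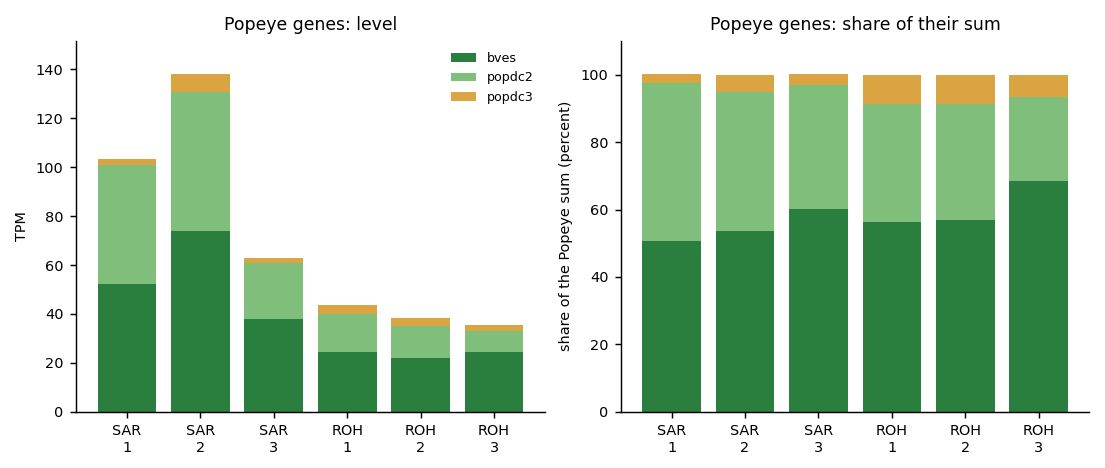
Stacked TPM (left, vertical axis from 0) and share of the summed TPM in percent (right) of bves, popdc2 and popdc3 in each of the 6 libraries. The sums are 62.8 to 138 TPM in the SAR against 35.5 to 43.7 in the ROH, and popdc3 takes 2.48% to 5.26% of them in the SAR against 6.77% to 8.79% in the ROH.

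Levels of popdc2, bves and popdc3 had the same order among the SAR libraries as the myocardial markers, and that of adrb1 did not. In the ROH the markers stood at 1460, 1470 and 778 TPM in replicates 1 to 3, so replicates 1 and 2 were nearly level. Levels of popdc2 and popdc3 were lowest in ROH replicate 3, as the markers were, and those of bves and adrb1 were not. There bves measured 24.6, 21.9 and 24.4 TPM, and popdc2 15.3, 13.1 and 8.76 TPM. Of the 10 tested myocardial markers, 3 were higher in the SAR and 0 lower, against 4.88% and 5.45% of all genes. Their median log2 fold change was 1.57. The sum of all 12 markers had an exact permutation p of 0.3 between the fractions. SAR replicate 3, with 1120 TPM of these markers, held the lowest popdc2 and bves of the SAR but the highest adrb1, at 14.9 TPM, and 3.08 TPM of CHRM2 ENSDARG00000098612. Divided by this sum, a ratio chosen after the values were seen, popdc2 reached 121, 132 and 207 TPM per 10000 TPM of myocardial markers in the SAR and 105, 89.4 and 112 in the ROH. This ratio was still higher in every SAR library (exact permutation p = 0.1). For bves the ratios overlapped at 131, 172 and 339 against 168, 149 and 313 (exact permutation p = 0.9), and their log2 difference was -0.01. For popdc3 the ratios were 6.41, 16.9 and 17.4 against 26.2, 23.0 and 30.9, lower in every SAR library (exact permutation p = 0.1). The adrb1 ratio was higher by 0.72 on the log2 scale with overlapping fractions, because ROH replicate 3 stood at 67.2 against 25.1 and 30.3 in SAR replicates 1 and 2 (exact permutation p = 0.5). The ratios of CHRM2 ENSDARG00000098612 were 9.67, 8.49 and 27.6 against 0, 3.24 and 11.5, and they overlapped too, since ROH replicate 3 lay above SAR replicates 1 and 2 (exact permutation p = 0.3). For rgs4 the log2 difference relative to these markers was -0.43. The part of myocardial content in the 4 differences beyond these ratios was not tested.

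**Figure D4:**
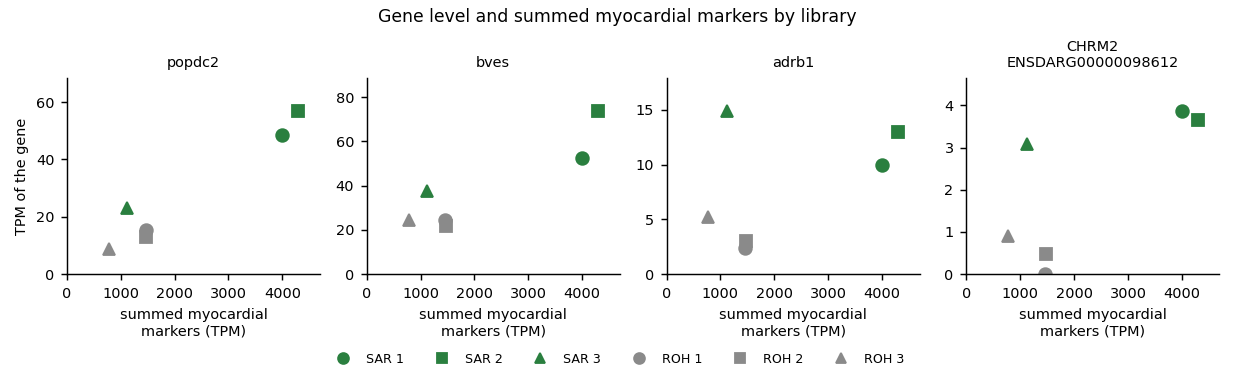
TPM of popdc2, bves, adrb1 and CHRM2 ENSDARG00000098612 (vertical axes, linear from 0) against the summed TPM of the myocardial markers (horizontal axis) in the 3 SAR and 3 ROH libraries. SAR replicate 3 lies at 1120 TPM of markers, near the ROH libraries at 778 to 1470, with 14.9 TPM of adrb1 against 2.38 to 5.23 in the ROH.

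The genes whose levels over the 6 libraries were most like those of each member were found among 19722 genes, as a description, since the fraction and the depth are shared by all genes of a library. The profile of popdc2 was closest to those of ism1 (Pearson r = 0.998 of log2(TPM + 1), n = 6 libraries) and of myh6 (0.994), a myosin heavy chain of the atrium, and that of bves to si:ch1073-303k11.2 (1.0) and eif1b (0.996). For CHRM2 ENSDARG00000098612 the closest genes were cishb (0.998) and slc8a1b (0.996), for adrb1 ror1 and capza1a (0.998 each), and for rgs6 cav4a (0.998) and PABPC4 (0.994). ADORA1 ENSDARG00000075694 was closest to GET3 (0.997) and rims2b (0.993). Next to rgs4 stood ENSDARG00000108683 (0.990) and sh2d5 (0.988), and next to popdc3 si:dkey-202l22.5 (0.991). With 6 libraries such values are common: 948 genes had an r above 0.9 with adrb1, 998 with CHRM2 ENSDARG00000098612 and 127 with popdc3.

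Of 132 tested genes from the rest of the pathway, 11 were higher and 5 lower in the SAR by edgeR, which is 8.33% and 3.79% of them against 4.88% and 5.45% of all genes. Their median log2 fold change was 0.24. The lists that link receptor and channel had few changes. None of the 10 alpha subunits of stimulatory and inhibitory G proteins, the 7 beta subunits or the 9 protein kinase A subunits passed with edgeR, DESeq2 or limma, and in each list 1 gene was higher at an unadjusted p below 0.05, with 1 lower among the beta subunits. The medians of these lists were 0.49, 0.24 and 0.16. Of 12 adenylyl cyclases, which make cyclic AMP (median -0.14), 1 was lower: adcy2b, at 13.5 to 18.3 TPM in the SAR against 30.1 to 63.4 TPM (log2 fold change -1.47, SE 0.26, adjusted p = 0.0109). Of 14 cyclic AMP phosphodiesterases (median 0.24), 1 was higher: pde7a, at 37.9 to 44.9 against 22.5 to 24.6 TPM (0.93, SE 0.17, adjusted p = 0.0127), a call lost without ROH replicate 1 or ROH replicate 2. Of 8 receptor kinases and arrestins (median -0.04), arrb1, which encodes the beta-arrestin 1 that uncouples activated receptors, was higher at 3.08 to 4.65 against 0.894 to 1.12 TPM (1.98, SE 0.46, adjusted p = 0.0310). That call held in 1 of the 6 fits that left out a library, the one without SAR replicate 2.

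Among the channels gated by inhibitory G proteins or by cyclic AMP, 2 of 8 tested genes (median 0.99) were higher in the SAR, or 25.0% against 4.88% of all genes. Both belong to the HCN family of pacemaker channels, which are activated by hyperpolarization and also gated by cyclic AMP. For hcn4 the levels were 6.35, 5.67 and 2.85 TPM in the SAR and 1.90, 0.896 and 0.187 TPM in the ROH. All SAR libraries lay above all ROH libraries (log2 fold change 2.83, SE 0.74, adjusted p = 0.0479 with edgeR). For hcn2b they were 5.82, 6.54 and 4.78 TPM against 1.94, 2.73 and 1.71 TPM (1.34, SE 0.32, adjusted p = 0.0333). Both calls were lost whichever library was left out, with log2 fold changes of 2.17 to 3.24 for hcn4 and 1.22 to 1.53 for hcn2b. The subunits of the potassium channel that the M2 and A1 receptors open did not pass: KCNJ3 ENSDARG00000062217 had a log2 fold change of -0.76 (adjusted p = 0.469), KCNJ3 ENSDARG00000077165 of -0.57 (adjusted p = 0.656) and kcnj5 of 0.70 (adjusted p = 0.561).

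The list with the most calls was that of caveolae and partner channels of Popeye proteins, membrane partners among which mammalian Popeye proteins are found. Of its 10 tested genes, 4 were higher in the SAR (40.0%, against 4.88% of all genes), with a median of 0.74. None was lower, also at an unadjusted p below 0.05 with edgeR or by DESeq2 or limma. All 4 encode caveolar proteins. The TREK-1 gene KCNK2 ENSDARG00000055123 did not pass (log2 fold change 0.47, adjusted p = 0.515 with edgeR). Neither did cav3 (0.41, 0.874), cavin4a (0.63, 0.77), cavin4b (0.69, 0.585), cavin1a (2.03, 0.0714) or CAVIN2 ENSDARG00000027611 (-0.19, 0.787). The level of cavin1b was 265, 236 and 383 TPM in the SAR and 66.5, 81.5 and 119 TPM in the ROH (log2 fold change 1.68, SE 0.28, adjusted p = 0.00881 with edgeR), a call lost without ROH replicate 2. For CAV1 it was 386, 783 and 821 TPM against 222, 278 and 225 TPM (1.41, SE 0.26, adjusted p = 0.0136), lost without ROH replicate 1, and for CAVIN2 ENSDARG00000071196 339, 450 and 516 TPM against 142, 195 and 159 TPM (1.35, SE 0.18, adjusted p = 0.00377). The smallest change was in cav2 (0.79, SE 0.20, adjusted p = 0.0428), named because it completes the count, and it held only without SAR replicate 2 when 1 library was left out. These genes are also expressed outside muscle, and the epicardial and epidermal marker sums were higher in the SAR too, a part that was not tested.

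Genes for making, storing and clearing the transmitters gave 2 of 12 lower in the SAR (16.7%, against 5.45% of all genes), with a median of -0.02. None was higher, also at an unadjusted p below 0.05 with edgeR or by DESeq2 or limma. The vesicular monoamine transporter gene slc18a2 measured 0.112 to 0.577 TPM in the SAR against 1.92 to 3.99 TPM (log2 fold change -2.83, SE 0.61, adjusted p = 0.0233 with edgeR), a call lost without SAR replicate 3, ROH replicate 1 or ROH replicate 2. For adka, an adenosine kinase gene, the levels were 39.8 to 57.0 against 148 to 186 TPM (-1.44, SE 0.20, adjusted p = 0.0045). Leukocyte, erythrocyte and liver marker sums moved in the same direction, and their part was not tested.

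**Figure D5:**
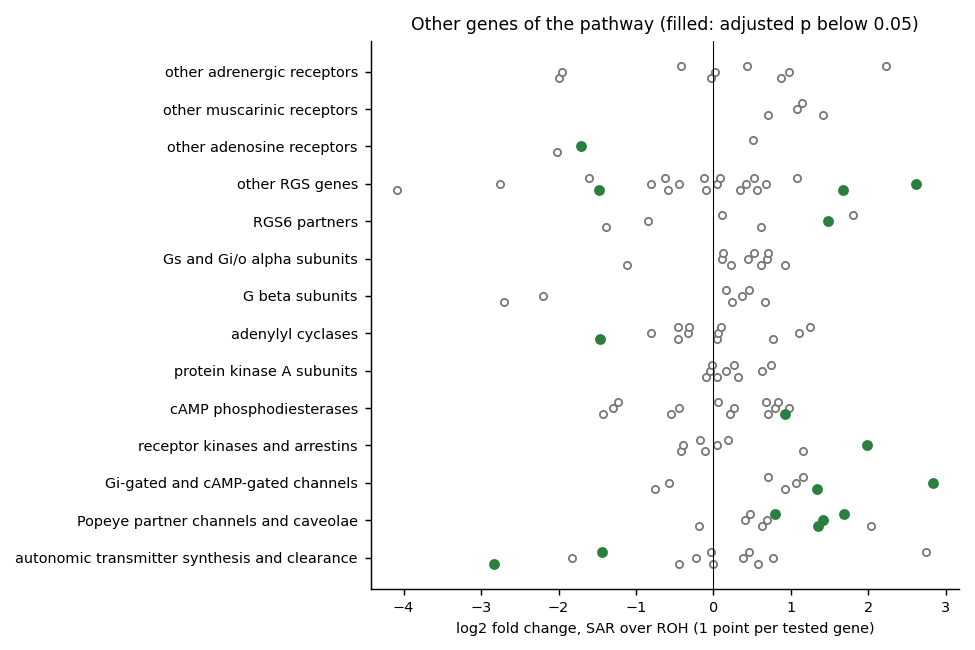
The log2 fold change of SAR over ROH (horizontal axis) of each tested gene of the rest of the pathway, 1 point per gene and 1 line per list, filled where the adjusted p was below 0.05 in edgeR. Of the 132 genes, 11 filled points lie above 0 and 5 below, with 4 of the 11 among the caveolar genes.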

How the data were processed

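RNA of GFP+ (SAR) and GFP- (ROH) heart cells was made into cDNA with SMART-Seq v4 and into libraries with Nextera XT, which does not mark strand. The authors mapped reads to GRCz11 with Ensembl Genes 92 and deposited TPM values, which Salmon had normalized for transcript length and sequencing depth. Beside these stood the deposited estimated counts per gene from Salmon, whose version is not given in the sources used here. Groups and replicate numbers came from the labels. Because nothing shows what else differs between replicates, p-values measure the spread between these pools.

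The members and gene lists were chosen with earlier results of these data known, and no list is independent evidence. Some genes that met the selection are not reported here. Symbols came from a gene name table and the study's supplementary tables, for 29000 of 31465 IDs. Estimated counts were rounded, filtered with filterByExpr (minimum count 10, minimum total 15), scaled by TMM and tested with edgeR 4.0.16 (R 4.3.3) in a quasi-likelihood fit with the fraction as the only term. A gene passed at an adjusted p below 0.05 over 21969 genes. The median SE was 0.37 for all genes and 0.50 for the members. Sums, shares and ratios were compared by exact permutation of 3 against 3 libraries, two-sided, with a smallest p of 0.1. No 2 libraries of the same fraction agreed within sampling noise. The fits were also run on simulated counts.

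Every member was named, as were up to 3 genes per direction and list that passed with the largest change, hcn4, KCNJ3 and kcnj5 whatever their values, and the 2 genes most like each member with a mean of at least 1 TPM, except those not reported here. Alternatives were DESeq2 1.42.0, limma 3.58.1 on log2(TPM + 0.1) and log2(TPM + 1), the latter also restricted to a mean of at least 1 TPM, other scalings, no filter, gene length offsets, counts thinned to 999206 per library, a replicate block, and leaving out each library. Depth limits low genes, since 3 counts correspond to 0.0388 to 3.0 CPM before the TMM factor.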

Additional observations from a re-analysis of the deposited data

How the results depend on the processing

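The number of members higher in the SAR was 4, and stayed between 3 and 5 with size factors of DESeq2, library totals, DESeq2, no filter on low counts, gene length offsets and limma on genes with a mean of at least 1 TPM. It was 2 with limma on log2(TPM + 1), 1 with limma on log2(TPM + 0.1), 2 with thinned counts, where 3 of the members were tested, and 2 with the replicate block and gene length offsets together. Leaving out 1 library gave 0 to 4. Past the fold threshold the number was 3, with 1 for limma on log2(TPM + 0.1), 1 for thinned counts, and 0 to 2 when 1 library was left out. In no setting was a member lower past the test. Over all genes, 1072 were higher and 1197 lower with edgeR, against 591 and 703 with limma on log2(TPM + 1), 565 and 584 with limma on log2(TPM + 0.1), 957 and 1487 with library totals, and 448 to 1117 and 512 to 1342 when 1 library was left out, and the cause of these differences was not tested. Among the other pathway genes, 11 were higher and 5 lower, against 6 and 2 with limma at either pseudocount. Of these 16 genes, 8 passed in every other setting that kept all libraries, and the others were rgs3b, adcy2b, arrb1, hcn2b, hcn4, CAV1, cav2 and slc18a2.

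No sign turned among the 4 members that passed, except that of bves relative to the summed myocardial markers (-0.01), a scaling chosen after the values were seen. That scaling also turned rgs4 to -0.43 and popdc3 to -1.10. Leaving out 1 library gave -0.62 to 0.18 for CHRM2 ENSDARG00000116374, -0.90 to 0.12 for ADORA1 ENSDARG00000075694 and -0.43 to 0.60 for popdc3. The cause was not tested.

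The replicate block gave log2 fold changes of 1.81 for adrb1 (adjusted p = 0.0138), 2.49 for CHRM2 ENSDARG00000098612 (0.0361), 1.45 for popdc2 (0.0029) and 1.11 for bves (0.0205) with edgeR, and changed no member's call. It took popdc2 under the fold threshold, leaving 2 members past it, and gave 1487 genes higher and 1593 lower. The deviations of same-numbered libraries from their group means correlated at 0.0985, 0.273 and 0.124 across genes. Every library correlated best with its own number in the other fraction, and no cutoff for pairing was set. The study's methods describe pools of hearts sorted into both fractions without stating which libraries share a pool, so same-numbered libraries may be pairs, which the exact tests do not use. ROH replicate 1 is the main limit of depth, because it holds at most 5 estimated counts of each receptor ID among the members, 1 of rgs6 and 9 of popdc3. A planned sum and share over receptor genes were not run.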
